A study of Mus musculus with 7 samples.

Results

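The nuclear genes for mitochondrial ribosomal proteins were followed through 7 RNA sequencing libraries of mouse B cells. The members are all genes of the deposited merged transcript set whose name is Mrpl or Mrps followed by a number, 76 of 23212 gene names. Of these, 47 are Mrpl genes, named for the large subunit, and 29 are Mrps genes, named for the small subunit.

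The cells were wild-type primary B cells of C57BL/6 mice. Each library stood for 1 condition: unstimulated at 0 h, or stimulated for 8 h or 30 h with anti-IgM, with BAFF, or with both. Anti-IgM is an antibody that crosslinks the B cell antigen receptor, and BAFF is a cytokine on which mature B cells depend for survival. The study compared each stimulus alone with the joint stimulus at both times. No group was cultured without a stimulus, so that time in culture and stimulus cannot be told apart in any comparison with the unstimulated library. With 1 library per condition there is no replicate error and no test, and every difference below is between 2 libraries.

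Mitochondria carry their own ribosome, which translates the few proteins encoded by mitochondrial DNA, all of them subunits of the respiratory chain and ATP synthase. Its RNAs come from mitochondrial DNA, whereas all its proteins are encoded in the nucleus, made in the cytosol and imported. Many of these proteins have a bacterial homologue, and others occur only in mitochondrial ribosomes. Activated lymphocytes are known to enlarge their mitochondria before they divide. A few names are historical: the products of Mrps18a and Mrps30 sit in the large subunit, and that of Mrps36 is known as a subunit of a mitochondrial dehydrogenase.

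For 23 of the 76 members, a gene on the other strand, at 5 FPKM or more in at least 1 library, starts within 1000 bases of the member's start. Mrps27 and Mrpl46 are among them, and Mrps22, Mrpl36 and Mrpl2 are not. The bases just before the start of these 5 members follow. They are RefSeq sequence of GRCm38.p6, read 5′ to 3′ on the gene's strand, with capitals marking a match to CCGGAAGT, the core bound by ETS family factors, or to CACGTG, the E-box bound by Myc, on either strand. They were chosen after the values were seen, for members described below, and do not show how often a match occurs.
Mrps27, chr13:99344686-99344785, plus strand: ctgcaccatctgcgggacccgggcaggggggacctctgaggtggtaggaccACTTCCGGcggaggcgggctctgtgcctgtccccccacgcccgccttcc
Mrps22, chr9:98601680-98601779, minus strand: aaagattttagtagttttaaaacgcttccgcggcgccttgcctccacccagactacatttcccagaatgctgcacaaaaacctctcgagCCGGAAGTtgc
Mrpl36, chr13:73330909-73331008, plus strand: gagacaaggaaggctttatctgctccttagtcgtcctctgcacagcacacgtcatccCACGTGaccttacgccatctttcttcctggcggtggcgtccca
Mrpl2, chr17:46646077-46646176, plus strand, from 160 to 61 bases before the start: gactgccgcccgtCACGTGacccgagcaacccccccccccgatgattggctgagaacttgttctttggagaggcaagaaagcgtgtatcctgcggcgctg
Mrpl46, chr7:78783090-78783130, minus strand, the whole stretch between its start and that of Mrps11: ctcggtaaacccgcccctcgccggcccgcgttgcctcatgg

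Expression is given as FPKM, fragments per kilobase of transcript scaled to the mapped reads of the library, summed over the assembled transcripts of a gene that have at least 300 bases. Each FPKM was deposited with a lower and an upper bound, which were taken as the value plus and minus 2 standard deviations of its counting error. FPKM is a share of a library and gives no amount per cell. In these bulk libraries, fewer cells of a type and less RNA per cell cannot be told apart. Mapped reads, recovered from the deposited values, ranged from 18.74 M to 28.6 M per library. Of 8 B cell markers, 7 or 8 were assembled in each library, with summed FPKM from 1035 with anti-IgM at 8 h to 3610 with BAFF at 30 h, and none of 5 neutrophil markers was assembled in any. Cd79a enters the B cell sum only with both stimuli at 8 h, at 304 FPKM, and with BAFF at 30 h, at 734 FPKM. It was not assembled in the other libraries. The summed FPKM of macrophage markers was higher in the unstimulated library, at 407 from 13 of 14 genes, against 44.8 to 117 from 8 to 12 genes in the others. Not every marker went this way. Emr1 was at 32.8 FPKM unstimulated and 48.2 with BAFF at 30 h, and Lyz2 at 16.3 and 19.8. Cd68 was not assembled in the unstimulated library and was at 6.23 to 14.8 FPKM where assembled. An erythroid globin transcript, Beta-s, was at 218 FPKM in the unstimulated library and at 45.1 FPKM or less elsewhere. These marker levels differ along with every comparison against the unstimulated library, and the part of other cells in the results was not tested.

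Of the 76 members, 71 were assembled in all 7 libraries. Mrpl53 was assembled in none. Mrps7 was assembled in 2 libraries, at 40.4 FPKM with anti-IgM at 30 h and 33.2 FPKM with BAFF at 30 h. Mrpl24 and Mrps34 were assembled in 5 libraries each, and Mrpl49 in 6. A gene without an assembled transcript has no value here and was not taken as 0 in any difference. Sums over marker lists hold the assembled genes only, so that a missing gene adds nothing to them.

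Members were expressed at moderate levels in every library. Over the 71 members assembled throughout, the median was 22.4 FPKM in the unstimulated library, 34.7, 28.3 and 34.3 FPKM at 8 h (anti-IgM, BAFF, both), and 32.1, 28.5 and 35.1 FPKM for the same stimuli at 30 h. Their summed FPKM was 1778 unstimulated, 2655, 2099 and 2927 at 8 h, and 2553, 2153 and 2534 at 30 h. The unstimulated library thus had the lowest sum, the 2 BAFF libraries came next, and the 4 libraries with anti-IgM were higher. Over the 8022 genes assembled throughout at a median of 5 FPKM or more, the sum was also lowest unstimulated, at 375707. It was 385036, 378453 and 403948 at 8 h and 425987, 396846 and 433869 at 30 h. The unstimulated library was the lowest of the 7 for 44 of the 71 members, or 62%, against 30.9% of the 8022 genes assembled throughout at a median of 5 FPKM or more. The library with both stimuli at 8 h was the highest for 28 members, or 39.4%, against 19.2% of those genes.

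**Figure D1:**
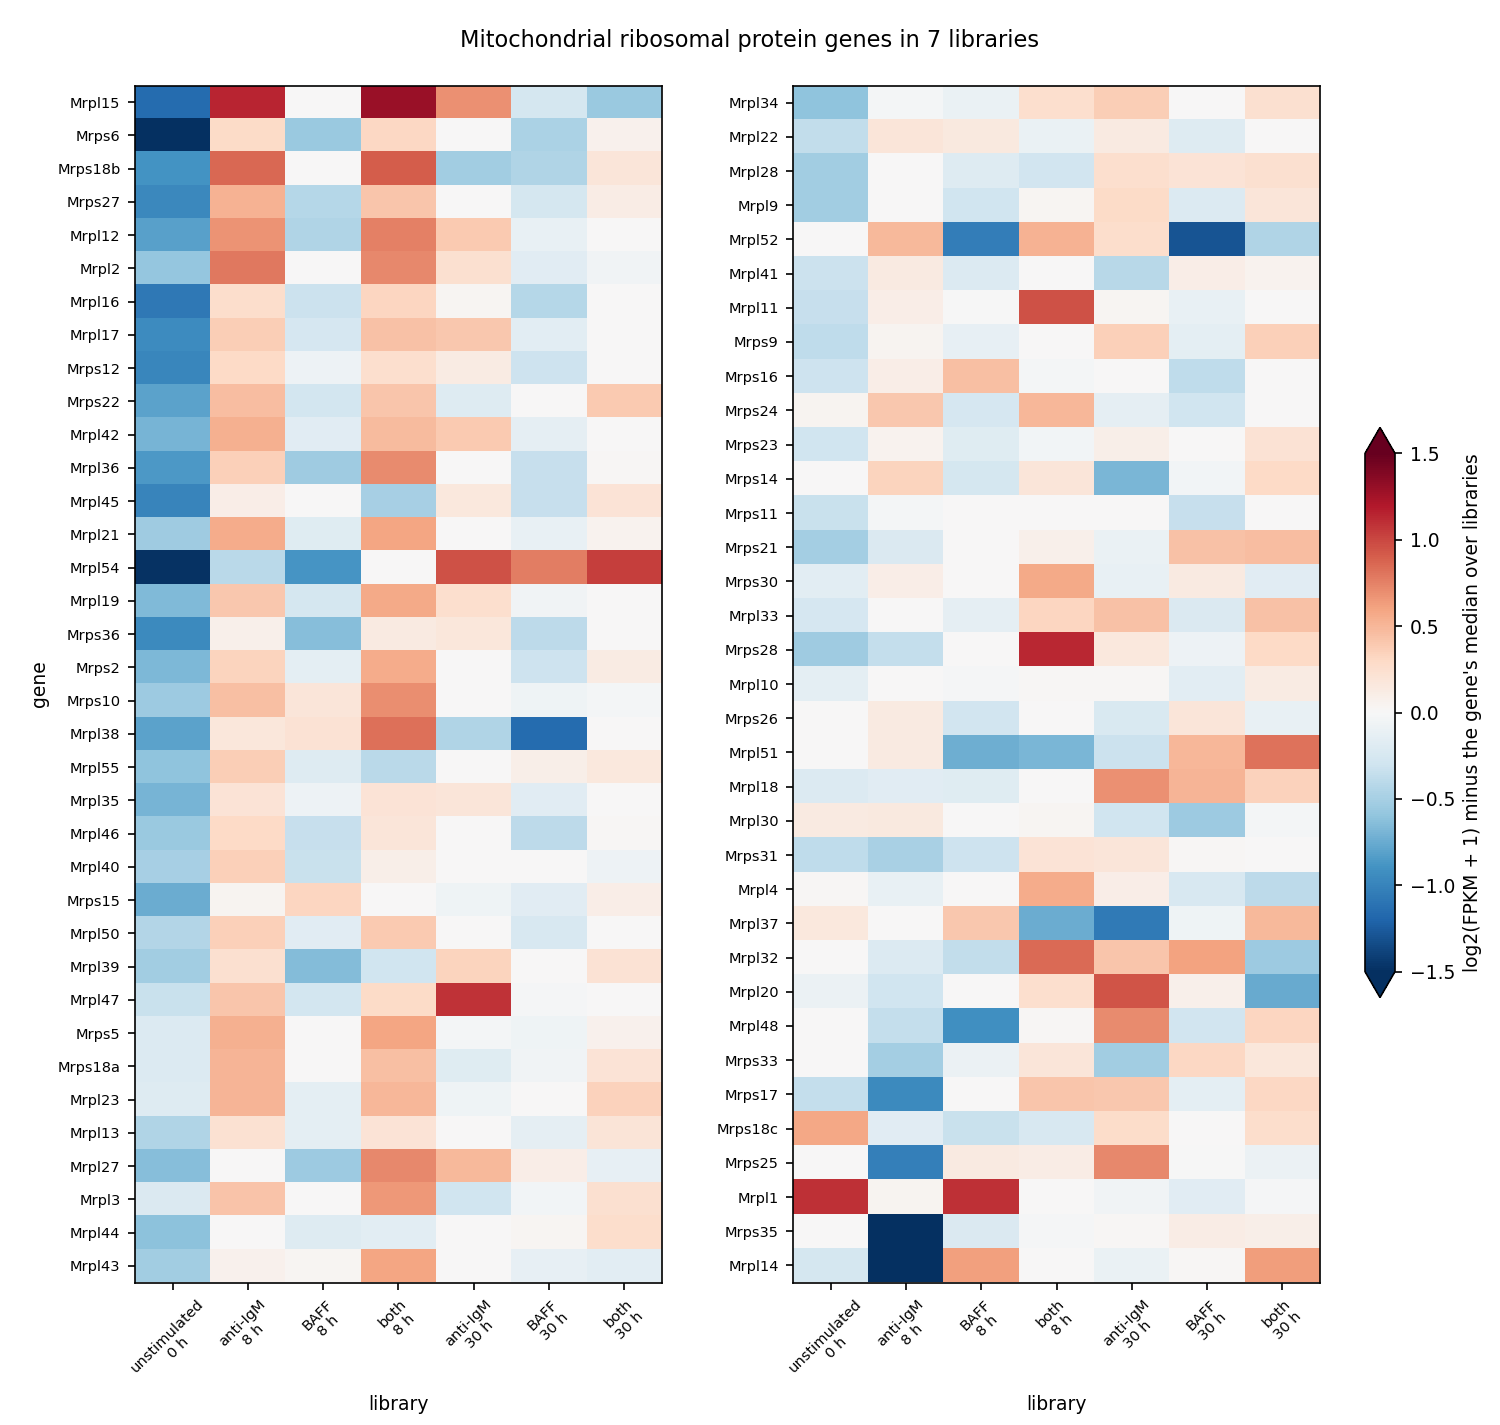
Level of the 71 members assembled in all 7 libraries, as log2(FPKM + 1) minus the gene's median over the libraries (colour), with genes in rows ordered by their difference between anti-IgM at 8 h and the unstimulated library, and libraries in columns. The unstimulated column is mostly blue, being the lowest library for 44 of the 71 members, and the column for both stimuli at 8 h is mostly red.

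The 5 members with the highest median FPKM were Mrpl52, Mrps21, Mrpl23, Mrpl12 and Mrpl33. Values are given in the order unstimulated, then anti-IgM, BAFF and both at 8 h, then anti-IgM, BAFF and both at 30 h, here and below. Mrps21, a homologue of a bacterial small subunit protein, was at 60.4, 74.1, 86.1, 91.1, 80.0, 117 and 119 FPKM. It was lowest unstimulated and highest in the 30 h libraries with BAFF. Mrpl23, a homologue of the bacterial protein at the mouth of the exit tunnel, was at 67.7, 111, 69.7, 109.7, 74.0, 77.3 and 98.4 FPKM. Mrpl33, another large subunit protein with a bacterial homologue, was at 53.9, 64.6, 58.7, 80.8, 88.1, 55.7 and 88.0 FPKM. All 3 stayed within a factor of 2 over the libraries. Among the 71 members assembled in all 7 libraries the flattest was Mrpl10, picked for that after its values were seen, at 31.2, 34.7, 34.3, 35.3, 35.1, 30.9 and 37.9 FPKM, a ratio of highest to lowest of 1.22.

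With anti-IgM at 8 h, most members had a higher level than in the unstimulated library. A gene was compared when assembled in both libraries with at least 1 FPKM in 1 of them, and was counted as higher or lower when log2(FPKM + 1) differed by at least 1 and the deposited intervals did not overlap. Of 72 members compared, 59 had a difference above 0, and the median difference was 0.58, against 0.04 over the 9898 genes compared. Counted as higher were 17 members, or 23.6%, beside 10.7% of all genes, and 4 were lower, beside 10.4%. Both subunits contributed, with 11 of 45 Mrpl and 6 of 27 Mrps genes higher and medians of 0.64 and 0.37. B cell markers moved the other way. All 7 compared were below 0 with a median of -1.06, and 4 of them, Ms4a1, Pax5, Cd22 and Cd37, were counted as lower. The summed FPKM of the list was 2528 in the unstimulated library and 1035 after anti-IgM, and its part in the members' shift was not tested.

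Separate assembly gave some members transcripts of very different length in the 2 libraries, and because FPKM divides by length, a longer assembled transcript gives a lower FPKM for the same reads. Reads over exons were therefore set beside FPKM. They are the reads, worked out from FPKM and length, that all assembled pieces on either strand place over the RefSeq exons of a gene, and so are not independent of FPKM. By this measure 16 of the 17 members differed by at least 1 the same way, as did 2 of the 4 lower ones, beside 8.2% of all genes for higher and 6.64% for lower. The exception among the higher members was Mrpl45, whose reads over exons differed by 0.94. An alternative added after the values were seen kept only genes whose longest assembled transcript differed by under 1.5 times between the libraries. Of the 57 members left, 16 were counted as higher, beside 11% of such genes, and none as lower, beside 8.22%, while 56 were above 0 with a median of 0.70. The 15 members of unlike length held 1 of the higher and all 4 of the lower calls. Of all 1592 genes of unlike length, 146 were higher and 342 lower.

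**Figure D2:**
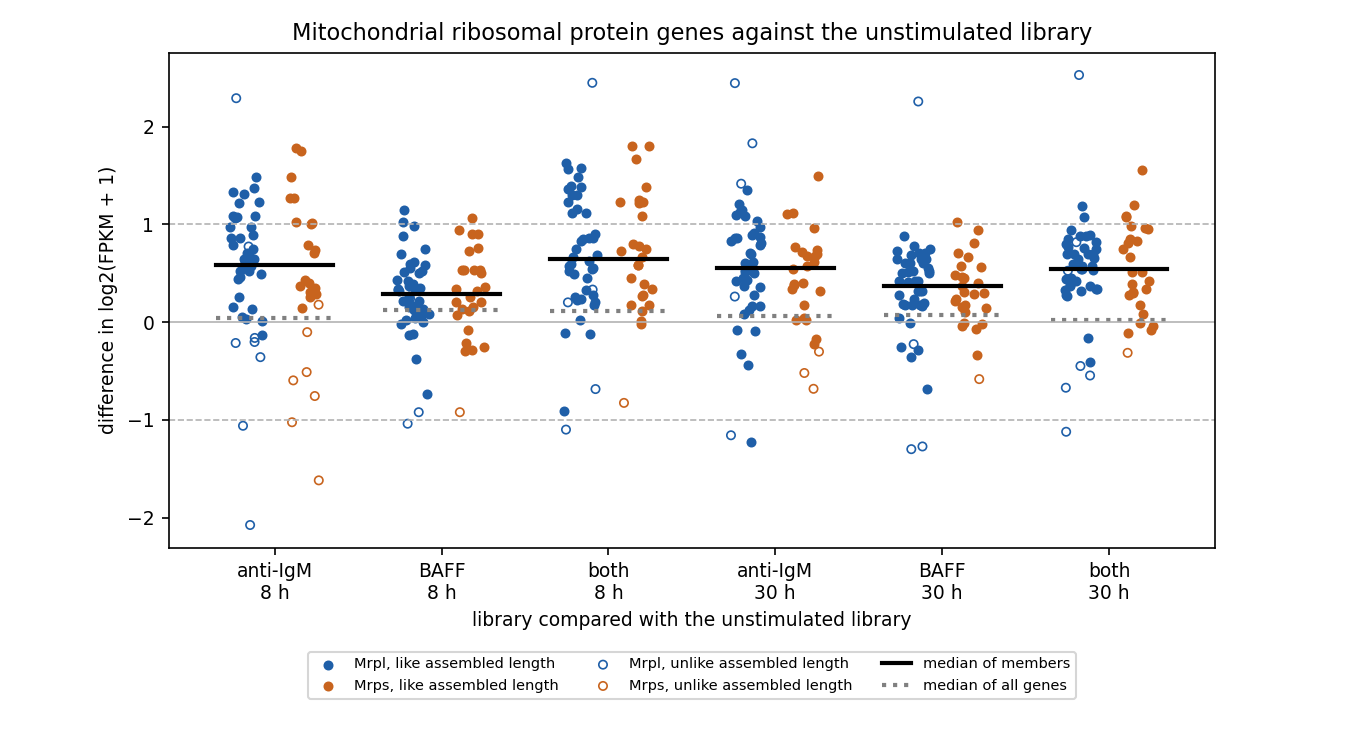
Difference in log2(FPKM + 1) of each compared member (points; Mrpl blue, Mrps orange) between each stimulated library and the unstimulated one, with medians over members (solid bars) and over all compared genes (dotted bars), and dashed lines at a difference of 1 either way. Open points are members whose longest assembled transcript differed by 1.5 times or more; the member medians lie above those of all genes in all 6 comparisons, and with anti-IgM at 8 h all 4 points counted as lower are open.

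Among small subunit proteins, the highest differences with anti-IgM at 8 h were those of Mrps6, Mrps18b, Mrps27, Mrps12 and Mrps22. Mrps6, the homologue of a bacterial small subunit protein, was at 7.29, 27.4, 14.9, 28.0, 22.4, 15.8 and 23.3 FPKM, and it was the only member counted as higher against the unstimulated library in 5 comparisons at like assembled length. Its difference with anti-IgM at 8 h was 1.78 ± 0.16 (here and below, ± gives 1 standard deviation of counting error). Slc5a3 shares the first exon of Mrps6, so reads there may belong to either gene. Mrps18b, 1 of 3 mammalian relatives of a single bacterial protein, was at 19.2, 67.3, 36.7, 69.6, 25.3, 26.6 and 41.8 FPKM. Both 8 h libraries with anti-IgM stood apart from the other 5, and the difference was 1.75 ± 0.08 with anti-IgM at 8 h but 0.38 with anti-IgM at 30 h. Between anti-IgM at 30 h and at 8 h Mrps18b was counted as lower, by -1.38 ± 0.06 in FPKM and -1.32 in reads over exons.

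Mrps27, a pentatricopeptide repeat protein of the small subunit, was at 8.82, 26.5, 13.2, 24.6, 18.1, 15.0 and 19.6 FPKM, a difference of 1.49 ± 0.08 with anti-IgM at 8 h. Mrps12, the homologue of the bacterial protein beside the decoding site, was at 17.9, 44.6, 34.3, 43.2, 39.6, 29.0 and 36.2 FPKM, a difference of 1.27 ± 0.11. Mrps22, a protein found only in mitochondrial ribosomes, was at 8.06, 20.8, 12.1, 20.1, 12.8, 14.8 and 19.8 FPKM, a difference of 1.27 ± 0.11. For all 3, the unstimulated value was the lowest and the 2 libraries with anti-IgM at 8 h were the highest. Reads over exons gave differences of 1.5, 1.20 and 1.26 for Mrps27, Mrps12 and Mrps22. The upstream stretches of Mrps27 and Mrps22 printed above each hold 1 match to CCGGAAGT. Of the 11 compared members with this motif in the promoter, these 2 were the only ones counted as higher. Of the 53 without it 12 were, beside 10.7% of all genes.

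Among large subunit proteins, the highest differences were those of Mrpl15, Mrpl12, Mrpl2, Mrpl16 and Mrpl17. Mrpl12, the homologue of the bacterial stalk protein that recruits translation factors, was at 37.4, 107, 48.5, 113, 87.5, 61.5 and 66.6 FPKM. Its interval was 34.4 to 40.4 FPKM unstimulated and 103 to 111 FPKM with anti-IgM at 8 h, a difference of 1.49 ± 0.06. The 3 highest values were the 2 libraries with anti-IgM at 8 h and the anti-IgM library at 30 h. Mrpl2, the homologue of a bacterial protein close to the peptidyl transferase centre, was at 24.6, 65.2, 37.3, 62.1, 44.4, 33.2 and 36.1 FPKM, a difference of 1.37 ± 0.08. Mrpl16 was at 13.0, 34.4, 22.6, 35.7, 29.0, 20.9 and 28.5 FPKM, a difference of 1.33 ± 0.08. Mrpl17 was at 14.5, 37.3, 24.1, 39.4, 38.5, 25.6 and 28.7 FPKM, a difference of 1.31 ± 0.08. Mrpl2, Mrpl16 and Mrpl17, all with bacterial homologues, were lowest unstimulated, and BAFF alone at 8 h lay between the unstimulated value and the 2 values with anti-IgM.

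Mrpl15 had the highest difference of all members, but its transcripts were assembled unlike. Its FPKM was 13.5, 70.0, 31.2, 78.2, 50.6, 25.7 and 20.9, a difference of 2.29 ± 0.07 with anti-IgM at 8 h. The longest transcript had 1702 bases unstimulated and 1097 bases with anti-IgM at 8 h, and reads over exons differed by 1.35. The remaining members counted as higher with anti-IgM at 8 h were Mrpl19, Mrpl21, Mrpl36, Mrpl42, Mrpl45, Mrpl54 and Mrps2, with differences from 1.01 to 1.23.

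**Figure D3:**
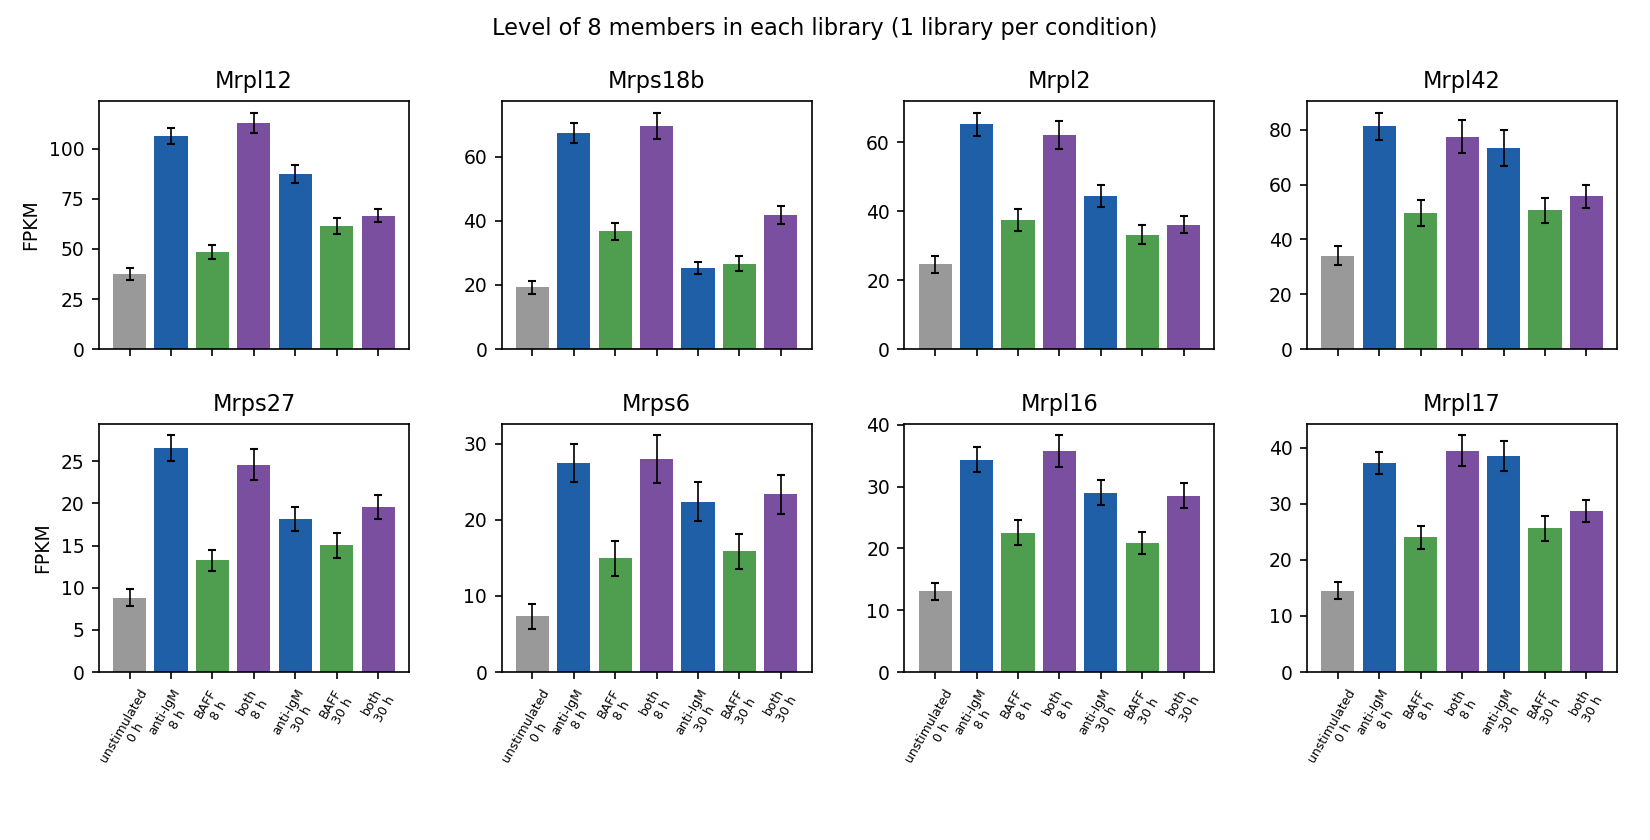
FPKM of 8 members in each of the 7 libraries (bars, from 0), with the deposited interval as error bars (2 standard deviations of counting error either way, no replicates); the 8 genes were chosen after their values were seen. In all 8 genes the unstimulated bar is the lowest, and at 8 h the bars for anti-IgM and for both lie well above the bar for BAFF.

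The members lowest against the unstimulated library with anti-IgM at 8 h were Mrpl14, Mrps35, Mrpl1, Mrps25 and Mrps18c, and all 5 had a longer transcript there. Mrpl14, whose bacterial homologue lies at the face between the subunits, was at 15.8, 2.97, 29.8, 19.0, 17.8, 19.3 and 29.9 FPKM. Only the anti-IgM library at 8 h was low, by -2.08 ± 0.11, and there the transcript had 7298 bases, against 695 unstimulated. Reads over exons differed by -1.46. Mrps35, a protein of the small subunit without a bacterial homologue, was at 23.6, 7.0, 20.2, 23.2, 23.9, 25.5 and 25.02 FPKM. Again 1 library was low, by -1.62 ± 0.09, with a transcript of 3505 bases against 971, and reads over exons differed by -1.24. Reads calculated back are spread evenly along an assembled piece, also where it runs far past a gene, so both measures depend on its length. The part of this in the low values of Mrpl14 and Mrps35 was not tested.

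Mrpl1, the homologue of the bacterial stalk protein beside the exit site, was at 15.8, 7.03, 15.8, 6.82, 6.51, 5.94 and 6.70 FPKM. It was counted as lower against the unstimulated library in 5 of the 6 comparisons, by -1.06 to -1.27. The unstimulated library and the BAFF library at 8 h had 2 transcripts each, the longest of 1407 and 2032 bases, and the other 5 libraries had 1 transcript of 3134 to 3369 bases. Reads over exons differed by 0.07 to 0.36, the other way, in those 5 comparisons. Mrps25 was at 30.0, 14.2, 33.1, 32.5, 50.005, 29.8 and 28.2 FPKM. Its low value, with anti-IgM at 8 h, came with 1 transcript of 6076 bases against 2 of up to 3519 bases unstimulated, and reads over exons differed by 0.02. Mrps18c was at 51.7, 30.2, 26.8, 28.7, 41.7, 34.2 and 41.4 FPKM, highest unstimulated, and was not counted in any comparison.

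**Figure D4:**
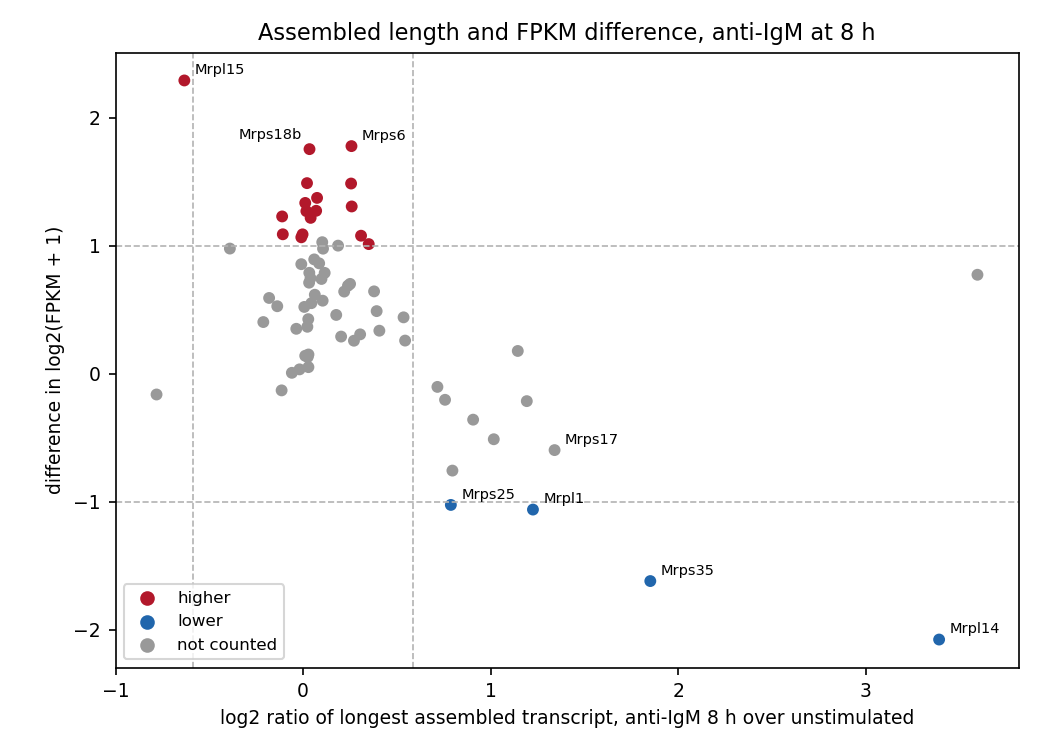
Difference in log2(FPKM + 1) between anti-IgM at 8 h and the unstimulated library (vertical axis) against the log2 ratio of the longest assembled transcript in the same 2 libraries (horizontal axis) for the 72 members compared, with dashed lines at a difference of 1 and a length ratio of 1.5 either way. The 4 members counted as lower (blue) lie to the right, with longer transcripts after anti-IgM, and 16 of the 17 counted as higher (red) lie between the vertical lines.

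Mrpl52 and Mrpl37 also were lower than unstimulated in some comparison. Mrpl52, a large subunit protein found only in mitochondrial ribosomes, was at 95.5, 134, 45.9, 138, 115, 38.2 and 69.6 FPKM. The 2 libraries with BAFF alone were the lowest, by -1.04 ± 0.10 at 8 h and -1.30 ± 0.10 at 30 h. Their transcripts had 742 and 878 bases against 397 unstimulated, and reads over exons differed by -0.36 and -0.53. Mrpl37, another mitochondrial large subunit protein, was at 29.0, 25.8, 34.4, 15.0, 11.8, 24.6 and 36.7 FPKM. Its difference with anti-IgM at 30 h was -1.22 ± 0.09 in FPKM and 0.13 in reads over exons. It had 4 transcripts unstimulated and 1 with anti-IgM at 30 h.

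With BAFF alone at 8 h the shift was smaller. Of 72 members 58 were above 0, with a median of 0.29, against 0.12 over all genes. Only Mrpl38 and Mrps15 were counted as higher, beside 5.56% of all genes, and Mrpl52 as lower, beside 4.14%, and none of the 3 was also called by reads over exons, beside 1.67% and 1.94% of all genes. At like assembled length 2 of 68 members were higher, beside 4.09%, and none lower, beside 2.86%. With both stimuli at 8 h, 65 of 72 members were above 0, with a median of 0.64 against 0.11, while all 7 compared B cell markers were below 0 with a median of -0.96. Counted as higher were 22 members, or 30.6%, beside 12.3% of all genes, and 1 was lower, Mrpl1, beside 8.84%. Reads over exons called 19 of the 22 the same way, beside 8.89% of all genes, and not Mrpl1, beside 5.96%. Of the 66 members of like assembled length, 21 were higher, beside 11.9%, and none lower, beside 7.59%.

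At 30 h the medians were close to those at 8 h. Fewer members were past the threshold with anti-IgM and with both, and 4 against 3 with BAFF alone. With anti-IgM, 61 of 72 members were above 0 with a median of 0.55 against 0.06, 13 were higher, beside 8.4% of all genes, and 2 lower, beside 7.25%. Reads over exons called 9 of these 13, beside 5.73%, and neither lower one, beside 3.86%. With BAFF, 57 of 71 were above 0 with a median of 0.37 against 0.07, 2 were higher, beside 5.06%, and 2 lower, beside 4.04%. Reads over exons called both higher ones, Mrpl54 and Mrps6, beside 1.9%, and neither lower one, beside 1.52%. With both, 61 of 72 were above 0 with a median of 0.54 against 0.02, 7 were higher, beside 8.29%, and 1 lower, beside 7.7%. Reads over exons called all 7, beside 5.72%, and not the lower one, beside 4.18%. At like assembled length, 10 of 64 members were higher with anti-IgM, beside 7.45%, and 1 lower, beside 5.65%. With BAFF these were 1 of 66, beside 3.76%, and none, beside 2.56%, and with both 6 of 64, beside 7.53%, and none, beside 6.1%. The share of higher members with BAFF alone lay below that of all genes, at 2.82%, although the median lay above. With both stimuli at 30 h the share, 9.72%, was near that of all genes.

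Mrpl54, a member described here because of its values at 30 h and so picked after they were seen, was at 9.56, 21.3, 15.0, 28.6, 56.5, 49.5 and 59.9 FPKM. The 3 libraries of 30 h were all above the other 4. Its transcript had 2056 bases unstimulated, 1483 to 2547 bases at 8 h and 622 to 709 bases at 30 h. Reads over exons differed from the unstimulated library by 2.08, 1.76 and 2.15 with anti-IgM, BAFF and both at 30 h, below the FPKM differences of 2.44, 2.26 and 2.53.

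With BAFF added to anti-IgM the members as a group had values close to those with anti-IgM alone. At 8 h the median difference between both and anti-IgM was 0.04 over 74 members, against 0.02 over all genes. Counted as higher were 7 members, beside 4.21% of all genes, and none as lower, beside 1.83%. Reads over exons called 3 of them, beside 0.44%. All 7 were among the 15 members assembled at unlike length, and of all 1256 such genes 292 were higher and 73 lower. Of the 59 members of like length none was counted either way, beside 1.48% and 1.26%. The 7 were Mrpl14, Mrps35, Mrps25, Mrpl24, Mrpl32, Mrps17 and Mrps28. At 30 h the median was 0.01, with 3 of 74 higher, beside 2.11%, and 3 lower, beside 3.15%. Reads over exons called 0 of the 3 higher and 1 of the 3 lower members, beside 26 and 37 of 10188 genes. At like length 2 of 67 were higher by FPKM, Mrpl37 and Mrps34, beside 1.19%, and none lower, beside 1.91%.

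Mrps28, a small subunit protein, was at 18.8, 21.4, 27.7, 61.9, 31.1, 26.3 and 34.2 FPKM. The library with both stimuli at 8 h stood above the other 6, by 1.49 ± 0.08 over anti-IgM and 1.13 ± 0.11 over BAFF. Its transcript had 1360 bases with anti-IgM at 8 h and 501 to 641 bases in the others, and reads over exons differed by 0.98 and 1.11. Mrps17, a homologue of a bacterial small subunit protein, was at 17.4, 11.2, 22.6, 30.5, 30.2, 20.3 and 28.3 FPKM, lowest with anti-IgM at 8 h, where a transcript of 5944 bases was assembled. Mrpl24, also with a bacterial homologue, was at 38.1 FPKM with anti-IgM, 32.6 with BAFF and 79.5 with both at 8 h, and at 60.4 and 88.4 FPKM with anti-IgM and both at 30 h. Its transcript had 1000 bases with both at 8 h, against 3004 and 2867 bases with the single stimuli. Reads over exons differed by 0.78 and 0.83 there, under the threshold.

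Against BAFF alone, both stimuli gave higher member values at 8 h. The median over 73 members was 0.46, against 0.01 over all genes, and 62 members were above 0. Counted as higher were 8, or 11%, beside 5.55% of all genes, and 2 were lower, beside 6.85%. Reads over exons called 6 of the 8, beside 2.95%. This comparison does not use the unstimulated library. The summed FPKM of macrophage markers was 44.8 with both and 46.3 with BAFF. Other marker lists differed between these 2 libraries. Of 7 compared B cell markers 6 were below 0, with a median of -0.69 and 2 counted as lower. The sum of the list over its assembled genes was 1643 against 2119 FPKM. The first sum holds 304 FPKM of Cd79a, which was not assembled with BAFF at 8 h. Erythroid markers summed to 48.1 FPKM with BAFF and were not assembled with both. Of the T cell markers only Lck was assembled, at 44.8 FPKM with both and 14.9 FPKM with BAFF. The part of these differences in the members' values was not tested. At 30 h the median was 0.25, against -0.04 over all genes, with 1 of 72 members higher, beside 3.03%, and 1 lower, beside 4.95%. Mrpl38 was the higher one and Mrpl32 the lower.

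The 8 members higher with both than with BAFF at 8 h were Mrpl12, Mrpl15, Mrpl24, Mrpl27, Mrpl32, Mrpl36, Mrpl52 and Mrps28. Mrpl36, the homologue of a very small bacterial protein, was at 19.3, 46.1, 24.5, 59.4, 35.9, 28.1 and 36.5 FPKM, a difference of 1.24 ± 0.08 between both and BAFF. Mrpl27, with a bacterial homologue near the peptidyl transferase centre, was at 10.8, 17.4, 11.6, 29.2, 24.7, 18.8 and 15.9 FPKM, a difference of 1.27 ± 0.11 with transcripts of 847 and 1358 bases. For Mrpl12 the difference was 1.20 ± 0.06 and for Mrpl52 it was 1.57 ± 0.08. In these 4 genes the library with both stimuli at 8 h had the highest value of the 7, and reads over exons differed by 1.10 to 1.28. The 2 lower members were Mrpl1 and Mrpl37.

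Anti-IgM against BAFF gave a median of 0.30 over 73 members at 8 h, against -0.05 over all genes, with 56 members above 0. Counted as higher were 3 members, Mrpl12, Mrpl15 and Mrpl52, beside 4.81% of all genes. Counted as lower were 4 members, Mrpl14, Mrps35, Mrpl1 and Mrps25, beside 8.3%, and these are the members with long transcripts in the anti-IgM library. At 30 h the median was 0.24, against 0.002 over all genes, with 54 of 73 above 0, 2 higher, beside 3.97%, and 1 lower, beside 4.54%. Those were Mrpl47 and Mrpl52 higher and Mrps34 lower. The 2 times share no library. Over 71 members the differences between anti-IgM and BAFF at 8 h and at 30 h had a Spearman correlation of 0.15, against 0.34 over 8648 genes at 5 FPKM or more, given as a description; the libraries' depths and assemblies are shared by all genes in each.

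Other members counted between stimuli mostly changed in assembled length as well. Mrpl20 was at 23.3, 19.96, 24.8, 29.6, 48.7, 26.2 and 14.3 FPKM. Between both and anti-IgM at 30 h it differed by -1.70 ± 0.07, with transcripts of 2224 and 819 bases, and by -1.41 in reads over exons. Mrpl47, a relative of a bacterial large subunit protein, was at 9.96, 17.4, 10.5, 15.9, 28.2, 12.7 and 12.8 FPKM. Its high value, with anti-IgM at 30 h, came with a transcript of 435 bases against 1444 to 1496 bases in the other 6 libraries, and reads over exons did not follow, at -0.38 against BAFF. Mrpl51 was at 20.5, 22.5, 11.9, 12.3, 16.1, 29.3 and 36.8 FPKM, and the 2 highest values were those of the 2 shortest transcripts, 1570 and 1387 bases. Mrpl38, a large subunit protein without a bacterial homologue, was at 19.8, 39.8, 41.2, 62.9, 25.6, 15.2 and 35.2 FPKM. Its difference between both and BAFF at 30 h was 1.16 ± 0.09 in FPKM and 0.67 in reads over exons.

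Mrps34, a small subunit protein without a bacterial homologue, was at 5.03 and 4.77 FPKM with anti-IgM and both at 8 h and at 3.77, 27.3 and 20.2 FPKM with anti-IgM, BAFF and both at 30 h. The lone short transcript, of 793 bases, was that of BAFF at 30 h, and the others had 3159 to 4566 bases. Between anti-IgM and BAFF at 30 h FPKM differed by -2.57 ± 0.10 and reads over exons by -0.17. Mrpl32, known as a substrate of a protease of the inner membrane, was at 12.9, 11.1, 9.75, 24.0, 17.6, 20.2 and 8.54 FPKM. Its highest value was with both at 8 h and its lowest with both at 30 h.

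Between 8 h and 30 h the median over all compared members moved little. The median difference of 30 h over 8 h was -0.09 with anti-IgM, 0.03 with BAFF and -0.14 with both, against -0.02, -0.05 and -0.12 over all genes. With anti-IgM, 7 of 74 members were higher, beside 7.94%, and 3 lower, beside 5.25%. With BAFF, 2 of 71 were higher, beside 3.56%, and 2 lower, beside 4.12%. With both, 4 of 74 were higher, beside 5.67%, and 3 lower, beside 6.84%. All 7 members higher at 30 h with anti-IgM were of unlike assembled length, and of all 1511 such genes 285 were higher. Among the 59 of like length none was higher, beside 6.01%, and 1 was lower, Mrps18b, beside 4.44%. The median of these 59 was -0.22 with 17 above 0, against -0.05 with 3978 above 0 over 8538 genes of like length.

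Genes named for cytosolic ribosomal proteins, which build the ribosome of the main cell body, did not show the same values at 8 h. The list was taken by name, as Rpl or Rps with a number and any further letters or digits, with the Rplp genes and Rpsa. It holds 96 names, and the rule also takes names of other genes, such as the kinase genes named Rps6k. Over 89 to 90 compared genes their median against the unstimulated library was -0.03, -0.09 and 0.02 at 8 h, in the same order, and 0.36, 0.18 and 0.47 at 30 h. Against anti-IgM at 8 h, anti-IgM at 30 h had a median of 0.39 in this list, where the members had -0.09. Many cytosolic ribosomal protein genes have near-identical pseudogenes, and reads may have been split among them. Nuclear subunits of oxidative phosphorylation, the complexes that hold the products of mitochondrial translation, had medians of 0.47, 0.21 and 0.57 at 8 h and 0.55, 0.36 and 0.62 at 30 h over 73 to 74 genes. With anti-IgM at 8 h, 10 of 73 of them were higher, or 13.7%, beside 10.7% of all genes, and 4 lower, beside 10.4%. Of the 89 cytosolic genes 4 were higher, or 4.49%, and 9 lower, beside the same shares of all genes.

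Other genes of mitochondrial translation stood beside the members. Of 6 mitochondrial ribosome proteins without an Mrp name, 5 were above 0 with anti-IgM at 8 h, with a median of 0.70, and 1 was counted as higher. This was Chchd1, at 40.2, 96.2, 62.8, 94.8, 73.1, 59.7 and 68.4 FPKM, lowest unstimulated and highest in the 2 libraries with anti-IgM at 8 h. Of 22 compared assembly genes, 21 were above 0 with a median of 0.58, 4 were higher, beside 10.7% of all genes, and none lower, beside 10.4%. All 4 were also called by reads over exons. In lists this small the shares are a description only. C1qbp, a matrix protein required for mitochondrial translation, was the most abundant of the 4 at 60.4, 258, 122, 241, 174, 124 and 180.3 FPKM. The others were the RNA methyltransferase gene Rnmtl1, from 3.52 to 12.03 FPKM between the unstimulated and the anti-IgM library at 8 h, the helicase gene Ddx28, from 4.03 to 13.3, and Fastkd2, from 10.1 to 22.5.

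Of 11 compared translation factors and mRNA proteins, 3 were higher with anti-IgM at 8 h, beside 10.7% of all genes, 1 was lower, beside 10.4%, and the median was 0.31. Tufm, the elongation factor that brings transfer RNA to the ribosome, was at 26.8, 66.7, 41.0, 65.8, 65.5, 45.4 and 64.4 FPKM. Tsfm, its exchange factor, was at 10.4, 23.6, 15.5, 26.4, 24.4, 17.4 and 22.9 FPKM, and Lrpprc, which stabilises mitochondrial messenger RNA, at 15.9, 41.5, 23.2, 39.1, 24.4, 21.1 and 26.2 FPKM. All 3 were lowest unstimulated. Gfm2, which takes part in ribosome recycling, was the lower one, from 16.1 to 7.17 FPKM, and was not called by reads over exons, which called the 3 higher ones. Of 4 compared genes of mitochondrial transcription none was counted, with a median of 0.29. Tfam, which packages mitochondrial DNA, was at 19.4 FPKM unstimulated and 19.3 FPKM with anti-IgM at 8 h.

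The members are compact genes. Their RefSeq models had a median of 5 exons and 1053 exon bases, against 9 exons and 2891.5 bases for 9974 other genes at 5 FPKM or more in at least 1 library. They lie on 17 chromosomes, with 10 on chromosome 11 and 8 on chromosome 17. Another gene at 5 FPKM or more lay within 1000 bases of 32 members, or 42.1%, against 28% of those other genes. For 23 members, or 30.3%, such a gene on the other strand started within 1000 bases of the member's start, against 14.3% of the others. Such pairs are called head-to-head here, with the other start on either side of the member's start.

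Head-to-head neighbours had a lower median difference than the members. In the 19 pairs with a partner outside the family and both genes compared, 4 members and 2 partners were higher with anti-IgM at 8 h, beside 10.7% of all genes. The partners' share was near that of all genes. The medians were 0.59 for members and 0.08 for partners. Mrps27, whose start lies 108 bases from that of Ptcd2, differed by 1.49 and Ptcd2 by 0.16. Mrpl21, 37 bases from Ighmbp2, differed by 1.09 and Ighmbp2 by 0.08. In the pair of Mrpl43 and Peo1, the mitochondrial DNA helicase gene, starts lie 116 bases apart and the partner had the larger difference, 1.67 against 0.59. Mrpl46 and Mrps11 are both members, with the 41 bases printed above between their starts. Mrpl46 was at 14.6, 27.4, 17.1, 25.2, 22.04, 16.6 and 22.2 FPKM, and Mrps11 at 14.3, 18.0, 18.4, 18.5, 18.4, 14.2 and 18.3 FPKM. Without strand in the library kit's description, reads where paired genes overlap could go to either.

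RefSeq promoters, from 250 bases before to 50 bases after the start, were at hand for 67 members, whose start was identical to that of the merged model for 43 and within 100 bases for 63. The motifs searched on both strands were CACGTG (E-box), CCGGAAGT (ETS), ATGGCGGC (YY1) and the palindromic motif of NRF1, and none is contained in another. CACGTG was found in 5 promoters, or 7.46%, against 11.1% of the 7301 promoters of genes at 5 FPKM or more. CCGGAAGT was found in 11, or 16.4%, against 9.78%, and the NRF1 motif in 3, or 4.48%, against 2.42%. ATGGCGGC was found in 12, or 17.9%, against 6.01%, and in 11 of the 12 it lay after the start. A match is a run of letters, not a shown binding site.

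By FPKM, no motif went with a higher difference for anti-IgM at 8 h beyond a small margin. The 5 members with CACGTG were Mrpl2, Mrpl20, Mrpl36, Mrpl37 and Mrps18c. Their median was -0.16, against 0.57 for the 59 without. Of these 5, Mrpl2 and Mrpl36 were counted as higher, against 12 of the 59 without, beside 10.7% of all genes. For CCGGAAGT the medians were 0.49 with and 0.57 without, for the NRF1 motif 0.52 and 0.57, and for ATGGCGGC 0.64 and 0.53. These splits were made after the values were seen and are given as a description.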

How the data were processed

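RNA from mouse B cells was reverse transcribed with poly-dT primers and made into Illumina TruSeq libraries, 1 per condition, per the labels' protocols. Reads were processed with CASAVA 1.8.2, TopHat2 2.0.5, Bowtie2 2.0.0.7 and Cufflinks 2.0.2 on mm10, per the submitters' processing notes, which give no role or order. The deposited values are FPKM with lower and upper bounds of transcripts assembled by the authors in each library separately, written with other attributes in 1 column. The deposited merged transcript set has no expression values and was used for gene names, RefSeq models and positions.

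Each transcript was named by exon overlap on its strand, and FPKM was summed over transcripts with 300 bases or more. Shorter pieces, left out, held 66.6% to 74.35% of the FPKM of a library. Between 10245 and 10682 genes were named per library. Differences are in log2(FPKM + 1), which understates the change of low genes. Reads over exons were calculated back from FPKM, bounds and length on either strand. Neither measure has a replicate, so 15 comparisons were described by counts and medians with no test. Separate assembly changes transcript length and thereby FPKM.

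The members and lists were chosen with earlier results of these data known. Values in all libraries are printed for the 10 highest and 5 lowest differences with anti-IgM at 8 h at 5 FPKM or more, members counted as lower than unstimulated, members counted between stimuli, and the 5 highest medians. The gene models, the restriction to like length, the other subsets, the printed sequences, the motif split, the head-to-head comparison and the genes of the bar plot were chosen after values were seen. Promoters came from RefSeq (GRCm38.p6). The calls were tested on simulated data with counting error alone and the same transcript length in both libraries. That test does not cover unlike assembled length or variation between samples. Alternatives covered pseudocount, filter, fold, intervals, scaling, transcript choice, transcript length and reads over exons. The work ran in Python 3.11.15 with pandas 2.3.3, numpy 2.4.6 and, for plots, matplotlib 3.10.9.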

Additional observations from a re-analysis of the deposited data

Results flagged for a closer look

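Mrpl32 differed in opposite directions between both stimuli and BAFF alone at the 2 times. With both stimuli it was higher at 8 h, 24.0 against 9.75 FPKM, a difference of 1.22 ± 0.10, and lower at 30 h, 8.54 against 20.2 FPKM, a difference of -1.15 ± 0.09. Each value is 1 library, and the change between times was not tested. The assembled transcript had 1204 bases with both and 2112 with BAFF at 8 h, and 2814 and 1136 bases at 30 h, so that the higher FPKM went with the shorter transcript each time. Reads over exons differed by 1.08 and -0.97.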

How the results depend on the processing

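The medians of the members against the unstimulated library stayed above 0 in all 6 comparisons under every alternative run. Of the other medians 2, both near 0, changed sign by less than the counting error: BAFF at 30 h against 8 h was -0.04 without members that have a neighbour within 1000 bases, and both against anti-IgM at 30 h was -0.0004 with transcripts of any length. Counts of calls moved more than medians, and the causes were not tested unless the alternative itself sets them. Shares over all genes under the same alternatives are not given below. The counts therefore cannot be read as more or fewer than among all genes. Below, "against unstimulated" is left out where it applies.

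A fold of 1.5 in place of 2 widens the call by construction. Members higher were then 35 with anti-IgM, 13 with BAFF and 38 with both at 8 h, and 34, 19 and 33 at 30 h, and members lower were 4 with BAFF and 4 with both at 8 h and 2 with both at 30 h. Between both and anti-IgM there were 13 higher and 4 lower at 8 h and 8 and 7 at 30 h. Between both and BAFF there were 27 higher at 8 h, and 6 higher and 2 lower at 30 h. Between anti-IgM and BAFF there were 22 higher at 8 h, and 8 higher and 5 lower at 30 h. From 8 h to 30 h there were 12 higher and 7 lower with anti-IgM, 7 higher and 4 lower with BAFF, and 16 lower with both.

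With reads over exons in place of FPKM, the median was 0.77 with anti-IgM and 0.78 with both at 8 h, and 0.46 for anti-IgM against BAFF at 8 h. Higher were 4 members with BAFF at 30 h, and lower were 0 with each of the 3 stimuli at 30 h. Between stimuli, 3 were higher for both against anti-IgM at 8 h and 0 at 30 h, 0 were lower for both against BAFF at 8 h and 2 higher at 30 h, and lower for anti-IgM against BAFF were 2 at 8 h and 0 at 30 h. From 8 h to 30 h, 4 were higher with anti-IgM, 1 was lower with BAFF, and 1 was higher and 1 lower with both.

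With the most abundant transcript alone, the median was 0.67 with both at 30 h and 0.46 for anti-IgM against BAFF at 8 h. Lower were 2 members with anti-IgM at 8 h, 0 with both at 8 h, 1 with anti-IgM at 30 h and 0 with both at 30 h, and higher were 1 with BAFF at 8 h and 11 with both at 30 h. For both against anti-IgM and against BAFF at 8 h 1 was lower each, for both against BAFF at 30 h 0 were higher, for anti-IgM against BAFF at 8 h 5 were higher and 2 lower, and for BAFF from 8 h to 30 h 1 was lower.

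Centred on the median of all genes, the median was 0.16 with BAFF and 0.50 with both at 8 h, and -0.013 for both from 8 h to 30 h. With BAFF 0 were higher and 3 lower at 8 h and 1 higher at 30 h, with both at 8 h 2 were lower, and for anti-IgM against BAFF at 30 h 2 were lower. A pseudocount of 0.1 gave 4 higher with BAFF at 8 h and 2 lower for anti-IgM against BAFF at 30 h. Transcripts of any length gave 2 higher for both against BAFF and 4 for anti-IgM against BAFF at 30 h. Like assembled length, added after seeing the data, gave medians of 0.70 with anti-IgM at 8 h and -0.22 for anti-IgM from 8 h to 30 h. Medians over the 44 members without a neighbour within 1000 bases and over the 71 members in all libraries, also added later, moved by less than the counting error.

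The depth, 18.74 M to 28.6 M reads, gives a median counting error of 0.08 to 0.10 for a member's difference against the unstimulated library, and no error between samples is known. Leaving out a replicate was not possible with 1 library per condition.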
